A study of Mus musculus with 6 samples.

Results

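Cytokinesis is the last step of cell division, and the 10 genes described here encode proteins of the central spindle, the contractile ring, the midbody and the spindle microtubules. They are Racgap1, Ect2, Anln, Cit, Prc1, Cep55, Nusap1, Hmmr, Ckap2 and Ckap2l. They were chosen by symbol and function, with earlier results of these data known, and all 10 had a row among the 23420 gene symbols of the deposited count table. Polyadenylated RNA of pancreatic islets from C57BL/6J mice was sequenced in 6 libraries. In the 3 libraries labelled OIO, for overfeeding-induced obesity, the mice had received the liquid diet Ensure by gastric infusion over 9 days, at 13 to 18.5 kcal per day. In the 3 control libraries the mice had received saline by gastric infusion over the same number of days. Both groups therefore shared the strain, the infusion and its length, and neither carried a gene alteration according to the labels. The sources used here give neither the age and sex of the mice nor whether a library came from 1 mouse or a pool. The p-values therefore measure the spread among 6 libraries, part of which may be technical.

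When chromosomes have separated, antiparallel microtubules are bundled between them into the central spindle. There, the centralspindlin complex of the proteins of Kif23 and Racgap1 recruits the exchange factor of Ect2, which activates the GTPase RhoA at the cell equator. RhoA drives an actomyosin ring that anillin and citron kinase organise, and the remaining bridge, the midbody, is cut by ESCRT proteins. Adult beta cells divide rarely, and their division after birth is a main route by which beta cell mass grows in mice.

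Transcripts of 9 of the 10 genes rose in islets of overfed mice, none fell, and Cit did not pass the threshold of an adjusted p under 0.05. The same threshold was passed in the higher direction by 4.54% of the 14903 genes tested with edgeR. At an unadjusted p under 0.05 all 10 were higher and none was lower. The share of all genes at that unadjusted threshold was not counted. DESeq2 and limma voom each called 9 of the 10 higher and none lower. Of all 14903 genes, DESeq2 called 903 higher and limma voom 640. The median log2 fold change of OIO over control was 1.24 for the 10 genes and −0.01 for all genes tested. Single genes ranged from 0.45 for Cit to 1.68 for Hmmr, which encodes a spindle protein also known as a hyaluronan receptor. In each of the 10 genes the lowest OIO library lay above the highest control library, as it did in 14.1% of all genes tested. Together the 10 transcripts averaged 108 ± 4.64 CPM (counts scaled to library size, mean ± SD, n = 3) in OIO libraries and 48.7 ± 8.02 CPM (n = 3) in the controls. In bulk RNA, more dividing cells and more of these transcripts per dividing cell cannot be told apart.

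The libraries held between 20968058 counts, in OIO replicate 1, and 48178375, in OIO replicate 2. Over all genes 676 were higher and 423 lower in OIO, and scaling by library size alone turned that balance to 498 higher and 1113 lower, with a median of all genes at −0.08. Beta cell markers, Ins1 and Ins2 among them, summed to 244224, 261490 and 267486 CPM in OIO and 236711, 189481 and 242559 CPM in control libraries. The labelled tissue thus carried its defining transcripts. The sums of the groups did not overlap, but OIO replicate 1 and control replicate 3 were almost level. For Ins2 the groups overlapped, with 143104 CPM in OIO replicate 1 and 149810 CPM in control replicate 3. Of the 10 beta cell markers none passed the threshold in the higher direction. Slc2a2 (−0.39, adjusted p = 0.044) and Slc30a8 (−0.35, adjusted p = 0.023), a glucose and a zinc transporter, fell. For 5 of the 10 the mean CPM was higher in OIO than in the controls. Among those, Ins1 (0.28, adjusted p = 0.078), Iapp (0.20, adjusted p = 0.075) and Ucn3 (0.26, adjusted p = 0.053) were higher without overlap of the groups. The part of beta cell content in the results for the 10 genes was not tested. Counts of single members in single libraries ranged from 36, for Cep55 in control replicate 2, to 1428, for Racgap1 in OIO replicate 2.

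Promoters of cell cycle genes often carry a CHR element, bound by complexes with MuvB, and CCAAT boxes, bound by NF-Y. Since 9 of the genes rose together, the RefSeq windows of GRCm38.p6, from 250 bases before to 50 after the annotated start, were searched on both strands for the CHR letters TTTGAA or TTTAAA and for CCAAT. A window was found for all 10 genes, and the first one listed was used for Ect2, Prc1 and Cep55, which have 2 each. CHR letters were present in 8 of the 10 windows, against 27.8% of 27025 genes with a window and 18.9% of the 10961 of them that were tested. CCAAT was present in 6 of 10, against 37.9% and 38.2%, and both were present in 6 of 10, against 10.9% and 7.54%. All CHR matches in the 10 windows were TTTGAA. A match is a string of letters and not a shown binding site.

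The 4 windows below hold both motifs and belong to the genes of lowest p among those that do, and that of Nusap1 is shown because it held neither although the gene rose. Each is written 5′ to 3′ along the strand of its gene in lower case, with CHR letters and CCAAT boxes of either strand in capitals (TTCAAA and ATTGG are the reverse strand forms). None of the matches overlapped another. The Racgap1 window is chr15:99651607-99651906 on the minus strand, that of Ect2 chr3:27153829-27154128, minus, and that of Ckap2l chr2:129297163-129297462, minus. The Ckap2 window is chr8:22185770-22186069, minus, and the Nusap1 window chr2:119618048-119618347, plus.
Racgap1: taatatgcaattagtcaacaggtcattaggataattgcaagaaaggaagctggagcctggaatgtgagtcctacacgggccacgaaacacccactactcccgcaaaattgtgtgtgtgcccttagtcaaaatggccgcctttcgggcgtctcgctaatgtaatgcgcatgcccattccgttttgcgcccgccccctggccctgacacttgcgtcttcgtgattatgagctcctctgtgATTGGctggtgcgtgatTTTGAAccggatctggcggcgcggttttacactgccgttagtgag
Ect2: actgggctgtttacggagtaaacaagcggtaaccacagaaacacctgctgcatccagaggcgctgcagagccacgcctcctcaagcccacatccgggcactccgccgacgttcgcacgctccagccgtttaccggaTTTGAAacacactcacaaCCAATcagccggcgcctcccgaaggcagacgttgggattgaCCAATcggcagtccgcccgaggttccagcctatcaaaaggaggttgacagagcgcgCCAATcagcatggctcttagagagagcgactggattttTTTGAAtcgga
Ckap2l: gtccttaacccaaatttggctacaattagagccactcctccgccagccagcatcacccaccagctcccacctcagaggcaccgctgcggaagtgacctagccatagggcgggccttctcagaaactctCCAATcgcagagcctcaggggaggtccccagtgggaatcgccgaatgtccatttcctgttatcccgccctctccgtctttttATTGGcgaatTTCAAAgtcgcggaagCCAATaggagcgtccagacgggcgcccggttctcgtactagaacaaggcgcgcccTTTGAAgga
Ckap2: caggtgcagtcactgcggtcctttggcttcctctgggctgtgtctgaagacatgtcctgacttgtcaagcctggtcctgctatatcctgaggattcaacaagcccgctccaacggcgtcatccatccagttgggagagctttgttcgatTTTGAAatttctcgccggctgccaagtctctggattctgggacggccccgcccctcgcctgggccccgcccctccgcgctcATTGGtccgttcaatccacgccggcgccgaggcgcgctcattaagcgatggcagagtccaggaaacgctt
Nusap1: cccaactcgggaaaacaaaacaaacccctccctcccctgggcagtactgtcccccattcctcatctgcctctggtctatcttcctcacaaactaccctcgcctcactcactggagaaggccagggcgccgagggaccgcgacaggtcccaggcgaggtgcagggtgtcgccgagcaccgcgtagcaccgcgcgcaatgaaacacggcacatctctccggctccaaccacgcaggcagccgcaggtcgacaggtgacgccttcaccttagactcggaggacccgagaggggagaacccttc

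The windows differed in where the letters lay. In Racgap1, a CHR began 5 bases after the start and a reverse CCAAT box 12 bases before it. Ect2 had CHR letters 114 bases before and 39 after the start, and CCAAT boxes 96 and 55 bases before and 1 base after it. In Ckap2l, CHR letters began 30 bases before and 41 after the start, with CCAAT boxes 122, 40 and 14 bases before it. Its relative Ckap2 had 1 CHR 101 bases before the start and 1 reverse CCAAT box 20 bases before it. Hmmr, the gene with the largest rise of the 10, held 5 reverse CCAAT boxes and 1 CHR 8 bases after the start. Anln and Cep55 had CHR letters after the start and no CCAAT. The window of Cit held neither motif.

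**Figure D1:**
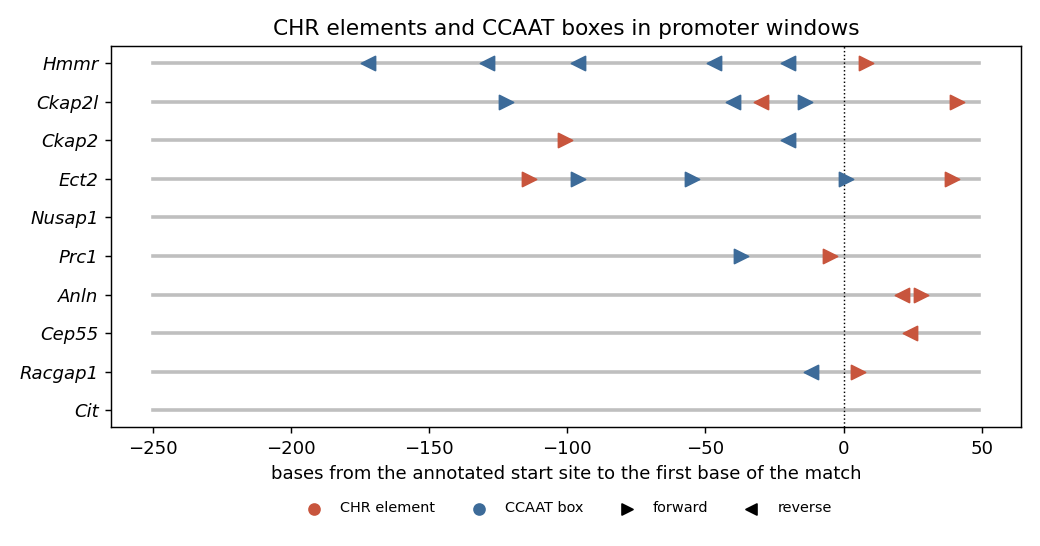
Map of the promoter windows of the 10 genes, in order of log2 fold change, with the distance in bases from the annotated start site on the x axis. Orange triangles mark CHR letters and blue ones CCAAT boxes, pointing right for the forward and left for the reverse strand. CHR letters are seen in 8 windows, and the windows of Nusap1 and Cit hold neither motif.

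Both RhoA regulators of the central spindle rose. Racgap1, the GTPase-activating subunit of centralspindlin, was at 24.9, 30.2 and 29.7 CPM in OIO replicates 1, 2 and 3 and at 16.4, 15.0 and 16.1 CPM in control replicates 1, 2 and 3. All OIO libraries were above all controls, and the controls lay close together. Its log2 fold change was 0.84 (SE 0.09, adjusted p = 6.8e-04), a 1.79-fold rise with a 95% interval of 1.56 to 2.04. Ect2, the RhoA exchange factor, was at 10.2, 11.04 and 11.9 CPM in OIO and 5.11, 3.47 and 4.53 CPM in control libraries. Control replicate 2 was its lowest library. Ect2 rose by 1.34 (SE 0.15, adjusted p = 9.3e-04), or 2.53-fold with a 95% interval of 2.02 to 3.17. The log2 ratio of Ect2 to Racgap1 averaged −1.35 ± 0.08 in OIO and −1.88 ± 0.22 in control libraries (n = 3 each). That ratio was higher in 3 of 3 OIO libraries than in any control, a difference of 0.52. The exact two-sided permutation test gave p = 0.1, the smallest that 3 against 3 libraries allow, and 0.2 after adjustment over 6 pairs.

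Of the organisers of the contractile ring, Anln rose and Cit did not pass. Anln encodes anillin, a scaffold that links RhoA, actin, myosin and septins. Its level was 10.1, 9.52 and 9.29 CPM in OIO and 5.41, 3.32 and 5.01 CPM in control libraries, with no overlap. Anln rose by 1.07 (SE 0.17, adjusted p = 0.0059), or 2.11-fold with a 95% interval of 1.63 to 2.72. Cit encodes citron kinase, a RhoA-binding kinase of the ring and midbody. Its level was 4.12, 3.86 and 4.54 CPM in OIO and 3.05, 3.67 and 2.47 CPM in control libraries. The groups did not overlap, but the lowest OIO library was only 1.05 times the highest control, which was control replicate 2. The log2 fold change of Cit was 0.45 (SE 0.19, adjusted p = 0.18), a 1.36-fold difference with a 95% interval of 1.02 to 1.81 before adjustment. Of the 15 alternative fits none brought Cit past the threshold, with adjusted p between 0.13 and 0.39.

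The log2 ratio of Cit to Anln was −1.29, −1.30 and −1.03 in OIO and −0.82, 0.15 and −1.02 in control libraries. Relative to Anln, Cit was thus lower in all OIO libraries than in any control, by 0.64 on average, although OIO replicate 3 and control replicate 3 were almost level (exact permutation p = 0.1, adjusted 0.2). Without control replicate 2 that difference was −0.29. Citron also has a shorter form without the kinase domain, known from brain, and the counts per symbol do not separate the forms.

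Prc1 encodes the crosslinker that bundles antiparallel microtubules of the central spindle. It was at 15.3, 15.5 and 15.6 CPM in OIO and 7.96, 4.70 and 7.42 CPM in control libraries. The OIO libraries were nearly level, with a coefficient of variation of 1.13%, against 26.1% among controls, where replicate 2 was lowest. Prc1 rose by 1.21 (SE 0.17, adjusted p = 0.0055), or 2.32-fold with a 95% interval of 1.77 to 3.03. Its log2 ratio to Kif4, the kinesin that Prc1 brings to the midzone, averaged 1.62 ± 0.19 in OIO and 1.86 ± 0.10 in control libraries, with overlapping groups (exact permutation p = 0.2, adjusted 0.3).

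Cep55 encodes the midbody protein that, in human cells, recruits ALIX and TSG101 for abscission. It had the lowest count of the 10 genes, at 2.20, 2.18 and 2.33 CPM in OIO and 1.13, 0.925 and 1.30 CPM in control libraries. The groups did not overlap. Its log2 rise of 0.997 (SE 0.23, adjusted p = 0.029) was 1.996-fold with a 95% interval of 1.40 to 2.85. The call was lost when any 1 of the OIO replicates 1, 2 and 3 was left out (adjusted p = 0.067, 0.096 and 0.099), or control replicate 1 (0.067) or 2 (0.088), while the log2 fold change stayed between 0.88 and 1.12. The log2 ratio of Cep55 to Anln averaged −2.11 ± 0.10 in OIO and −2.02 ± 0.21 in control libraries, a difference of −0.09 with overlapping groups (exact permutation p = 0.6, adjusted 0.72).

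The spindle microtubule proteins included the largest rises. Hmmr, whose product binds spindle microtubules and TPX2, was at 11.02, 11.5 and 11.1 CPM in OIO and 4.21, 1.95 and 4.33 CPM in control libraries. Control replicate 2 was at less than the level of either other control, and the lowest OIO library was 2.54 times the highest control. Hmmr rose by 1.68 (SE 0.26, adjusted p = 0.012), or 3.21-fold with a 95% interval of 2.11 to 4.90. Nusap1, a microtubule stabiliser near chromosomes, was at 7.999, 9.59 and 9.06 CPM in OIO and 4.998, 2.36 and 3.84 CPM in control libraries. The groups did not overlap. Nusap1 rose by 1.26 (SE 0.23, adjusted p = 0.017), or 2.40-fold with a 95% interval of 1.66 to 3.46. Its call was lost without OIO replicate 2 or 3 or control replicate 3, with adjusted p of 0.061, 0.054 and 0.054. The log2 ratio of Hmmr to Nusap1 was higher in every OIO library than in any control, by 0.46 (exact permutation p = 0.1, adjusted 0.2).

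Ckap2 and Ckap2l encode related microtubule-associated proteins of the mitotic spindle, and Ckap2l is also called radmis in mouse. Ckap2 was at 6.66, 7.05 and 7.13 CPM in OIO and 2.24, 1.72 and 3.11 CPM in control libraries. Ckap2l was at 10.3, 9.86 and 10.4 CPM in OIO and 4.59, 2.60 and 3.09 CPM in control libraries. In both genes every OIO library was above every control, and the highest control was replicate 3 for Ckap2 and replicate 1 for Ckap2l. Ckap2 rose by 1.56 (SE 0.20, adjusted p = 0.0019), or 2.94-fold with a 95% interval of 2.16 to 4.01. Ckap2l rose by 1.58 (SE 0.18, adjusted p = 0.0014), or 2.98-fold with a 95% interval of 2.24 to 3.97. The log2 ratio of Ckap2l to Ckap2 averaged 0.55 ± 0.07 in OIO and 0.54 ± 0.53 in control libraries, and the groups overlapped (exact permutation p = 1). That ratio was 1.04, 0.59 and −0.01 in control replicates 1, 2 and 3, so its spread among controls was far wider than among OIO libraries.

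**Figure D2:**
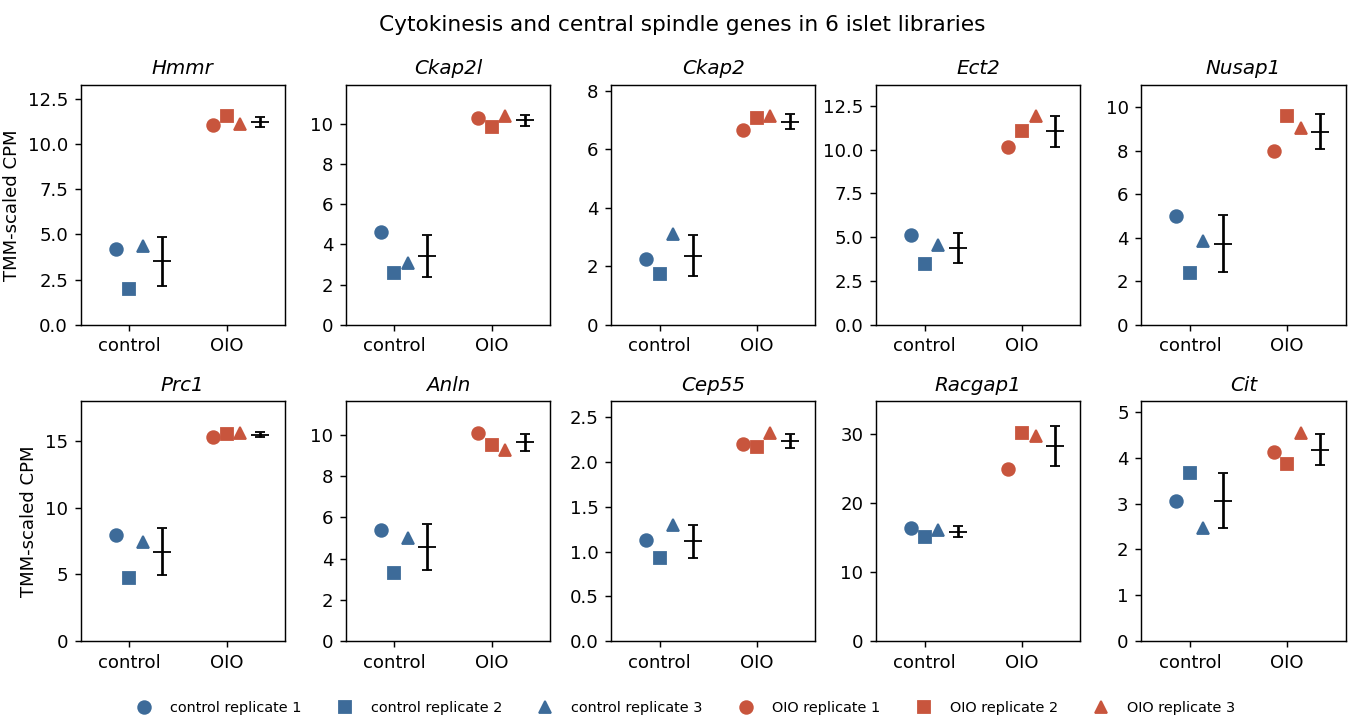
Level of each gene in every library, in CPM on library sizes scaled by trimmed mean of M-values (y axis, from 0), with the replicates as separate symbols and the mean ± SD as a black bar. Genes are ordered by log2 fold change. In every panel the 3 OIO libraries lie above the 3 controls, with the smallest gap for Cit.

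**Figure D3:**
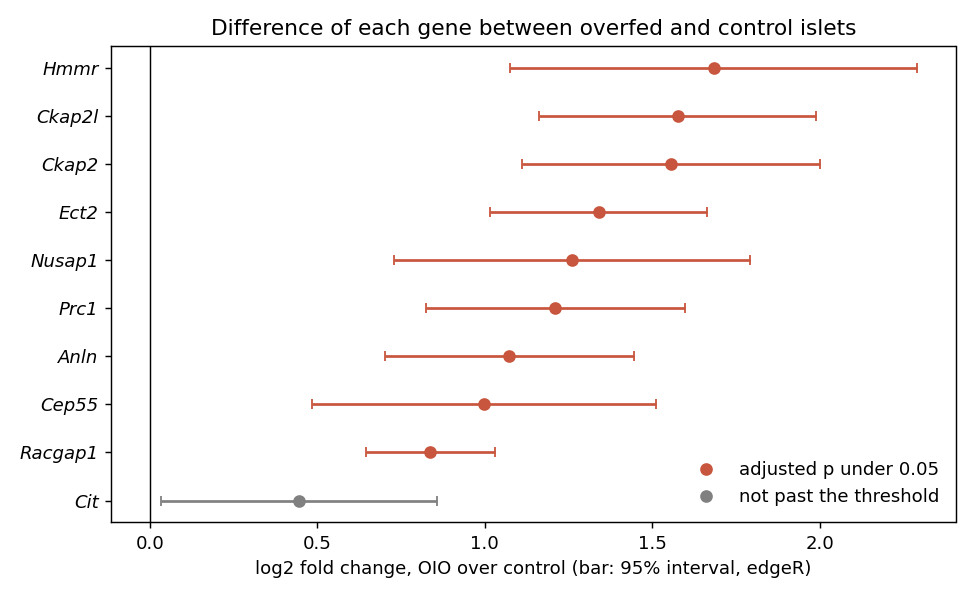
Log2 fold change of OIO over control for each gene (point) with its 95% interval from edgeR's fit (bar). Cit, in grey, is the gene that did not pass the adjusted threshold, and the other genes range from 0.84 for Racgap1 to 1.68 for Hmmr.

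In the authors' deposited table, whose direction its header does not state, the log2 fold changes of the 10 genes were all positive, from 0.46 for Cit to 1.78 for Hmmr. Across the 14903 genes of the authors' deposited table, 14558 had the same sign as OIO over control in the fit used here. The authors' deposited table gave an adjusted p under 0.05 to 9 of the 10, and 0.16 to Cit. The share of all its genes under that threshold was not counted. It compares the OIO and control groups of the same study, so it is not independent of the fit used here. Cep55 and Nusap1, the weakest calls here, had adjusted p of 0.024 and 0.017 in the authors' deposited table.

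Within the groups, the 10 genes did not vary independently. Control replicate 2 was the lowest control for 9 of the 10 genes, and Cit was the exception, being highest there. As log2 CPM minus the mean of its group, Hmmr was at −0.74 and Nusap1 at −0.58 in control replicate 2, where Cit was at 0.28. The correlation of each gene's deviations with the mean of the other 9, over the 6 libraries, was between 0.49, for Racgap1, and 0.99, for Prc1, and was −0.71 for Cit. These are descriptions over 6 points that share libraries and scaling, and the points hold 3 controls with a wide and 3 OIO libraries with a narrow spread. The coefficient of variation among OIO libraries ran from 1.13% for Prc1 to 10.4% for Racgap1. Among controls it ran from 4.76% for Racgap1 to 38.3% for Hmmr, and Racgap1 was the gene that varied more among OIO than among control libraries. Control replicate 2 also had the lowest beta cell marker sum of the 6 libraries and the highest sum of other endocrine markers, 89448 CPM against 52825 to 69190 in the others. Without control replicate 2 the median log2 fold change of the 10 genes was 1.01, and 8 of the 10 passed. Over all genes that fit called 440 higher, against 676 with all libraries.

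**Figure D4:**
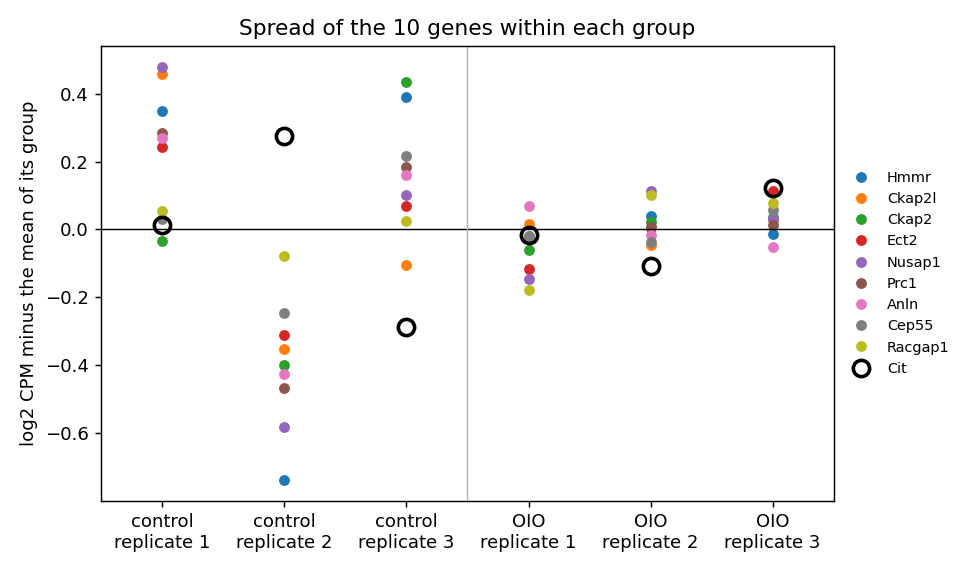
Deviation of each gene from the mean of its own group (y axis, log2 CPM) in the 6 libraries (x axis), with 1 colour per gene and Cit as open black circles. In control replicate 2, 9 genes lie below 0 and Cit lies above it, and the OIO libraries spread less than the controls.

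Levels were divided by the length of annotated exons, joined over all annotated transcripts of a gene, so the order of genes depends on the annotation. By that measure, Racgap1 had the highest level, at 3.99 ± 0.41 CPM per kilobase in OIO and 2.24 ± 0.11 in control islets (n = 3 each). Ckap2l followed at 3.24 ± 0.09 in OIO and 1.09 ± 0.33 in control islets, and Nusap1 came next in both groups, at 2.19 ± 0.20 and 0.92 ± 0.33 CPM per kilobase. In OIO, Nusap1, Ckap2, Hmmr and Ect2 lay between 2.19 and 2.05 and did not differ beyond their spread, and Prc1 came next at 1.88 ± 0.02. In controls, the levels of Nusap1, Prc1, Ect2, Ckap2 and Hmmr, from 0.92 down to 0.64, overlapped. Anln at 1.06 ± 0.05 in OIO and 0.50 ± 0.12 in control islets, Cep55 at 0.77 ± 0.03 and 0.38 ± 0.06, and Cit at 0.25 ± 0.02 and 0.19 ± 0.04 were the lowest in both groups. Racgap1 made up 26.1% of the summed CPM of the 10 genes in OIO and 32.6% in control islets.

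In GRCm38, by the GENCODE annotation of release M21, all 10 are protein-coding genes. Racgap1 lies on chromosome 15 from 99620496 to 99651656, Ect2 on chromosome 3 from 27097222 to 27153878 and Anln on chromosome 9 from 22332012 to 22389188. Cit, the longest gene of the 10 at 163670 bases, lies on chromosome 5 from 115845278 to 116008947. Prc1 lies on chromosome 7 from 80294450 to 80316259, Cep55 on chromosome 19 from 38055011 to 38074423 and Hmmr on chromosome 11 from 40701395 to 40733422. Ckap2 lies on chromosome 8 from 22168160 to 22185819, and Nusap1 and Ckap2l both on chromosome 2, from 119618298 to 119651244 and from 129268210 to 129297212. Exons of Prc1 share 911 bases with Rccd1 on the other strand, and those of Nusap1 share 172 bases with Oip5 on the other strand. Those of Ckap2l share 181 bases with Gm14024, an antisense gene on the other strand that has no row in the count table. The sources used here do not say whether the libraries keep strand, so reads from these stretches cannot be told apart. Rccd1 stood at 5.20 ± 0.06 CPM in OIO libraries and 5.54 ± 1.14 CPM in the controls (−0.09 on the log2 scale, adjusted p = 0.79). Oip5, a centromere protein gene, averaged 1.72 ± 0.20 against 0.77 ± 0.17 CPM (1.16, SE 0.28, adjusted p = 0.033).

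Of 4 lists of other genes of the process, that of the central spindle had the largest share of members that rose. Of 15 central spindle partners, 13 rose, Klhl21 fell and Cul3 was at −0.05 without passing. The median log2 fold change of the 15 was 1.23, and 4.54% of all genes tested rose in that fit. The 13 were Kif23, Kif20a, Kif20b, Kif4, Kif14, Kif18b, Aurkb, Incenp, Birc5, Cdca8, Plk1, Mastl and Arhgap11a. Kif20a, the kinesin that carries the chromosomal passenger complex to the midzone, averaged 10.3 ± 0.35 CPM in OIO and 4.61 ± 0.75 in control libraries, a log2 rise of 1.16 (SE 0.13, adjusted p = 0.0010). Arhgap11a, a RhoA regulator, rose by 0.98 (SE 0.12, adjusted p = 0.0014) and Kif20b by 1.23 (SE 0.15, adjusted p = 0.0016). Klhl21, the adaptor of a CUL3 ubiquitin ligase that acts on Aurora B in human cells, fell by 0.46 on the log2 scale (SE 0.06, adjusted p = 0.0018), with 29.2 ± 0.53 CPM in OIO and 40.05 ± 1.48 in the controls. Leaving out either OIO replicate 2 or OIO replicate 3 left 7 of the 15 higher. Over all genes those fits called 336 and 356 higher, against 676 with all libraries.

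Of 29 spindle assembly factors, 13 rose and none fell, the other 16 missing the threshold, where 4.54% of all genes tested rose. The median of the 29 was 0.48 on the log2 scale. None was lower at an unadjusted p under 0.05, in DESeq2 or in limma voom. Dlgap5, a kinetochore fibre protein, rose by 1.55 (SE 0.17, adjusted p = 9.4e-04) and Tpx2, which activates Aurora A and binds the Hmmr product, by 1.51 (SE 0.17, adjusted p = 0.0014). Kif11, the motor that separates spindle poles, rose by 1.23 (SE 0.16, adjusted p = 0.0024) and Kntc1, a kinetochore protein, by 1.38 (SE 0.19, adjusted p = 0.0047). Leaving out OIO replicate 1, 2 or 3 left 8, 6 and 6 of the 29 higher. Over all genes those fits called 401, 336 and 356 higher, against 676 with all libraries.

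The lists of other ring and abscission genes had medians near 0. Of 24 listed genes of the actomyosin ring and septins, 22 had a row, and none of the 22 passed in edgeR in either direction. At an unadjusted p under 0.05, 6 were higher and 2 lower, DESeq2 called 2 higher and 1 lower, and limma voom called none. The median was 0.01, and the genes of lowest p were Myl6 at 0.19 (adjusted p = 0.067), Sept2 at −0.17 (adjusted p = 0.076), Sept11 at 0.24 (adjusted p = 0.078) and Cfl1 at 0.15 (adjusted p = 0.11). Of 25 abscission and ESCRT genes, 1 fell, none rose and 24 missed the threshold, the median being −0.02. At an unadjusted p under 0.05, 2 were higher and 4 lower, DESeq2 called 1 higher and 1 lower, and limma voom 0 higher and 1 lower. Of all 14903 genes, DESeq2 called 903 higher and 511 lower, and limma voom 640 higher and 346 lower. The share of all genes at the unadjusted threshold was not counted, so the unadjusted counts of both lists stand without a background. Spg20, the gene of spartin, fell by 0.30 on the log2 scale (SE 0.07, adjusted p = 0.027). Vps37b at 0.39 (adjusted p = 0.052), Vps28 at 0.17 (adjusted p = 0.089) and Vps4b at −0.16 (adjusted p = 0.11) did not pass. Vps37b and Vps28 belong to ESCRT-I, and Vps4b is an ATPase that disassembles ESCRT-III.

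**Figure D5:**
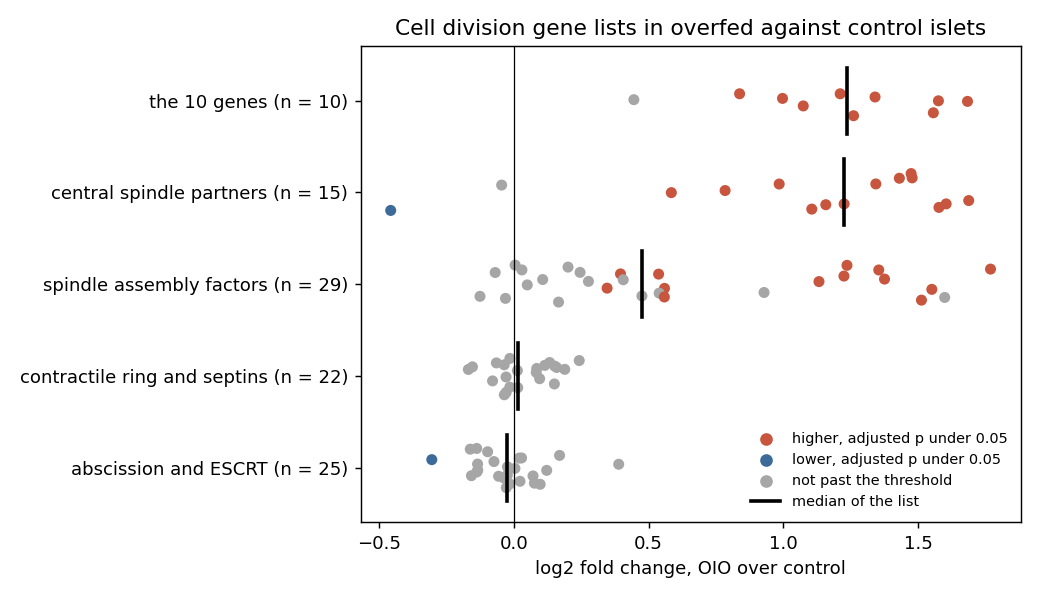
Log2 fold change of OIO over control (x axis) for the tested genes of each list (rows), with 1 point per gene, coloured by the adjusted p threshold, and a black bar at the median. The medians are 1.24 for the 10 genes, 1.23 for central spindle partners, 0.48 for spindle assembly factors, 0.01 for ring and septin genes and −0.02 for abscission genes.

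Profiles over the 6 libraries were compared among tested genes whose mean log2 CPM reached 2, leaving out symbols of predicted genes. Within that set, the genes most like the mean of the 10 were Cenpe, Scamp3, Tpx2, Cope and Rnf5, with Pearson correlations between 0.998 and 0.9996. The measure compares log2 CPM over 6 points that share the difference between groups, so it orders genes and carries no test. Cenpe, a kinetochore kinesin, rose by 1.85 (SE 0.20, adjusted p = 0.0011). Scamp3 and Cope, genes of membrane traffic, rose by 0.37 each (adjusted p = 0.0076 and 0.0059), and Rnf5, a ubiquitin ligase of the endoplasmic reticulum, rose by 0.25 (adjusted p = 0.028). Profiles of like shape thus included genes whose change was far smaller than that of the 10.

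Immune cells can divide, so their markers were set beside the 10 genes. Of 14 T and B cell markers 13 had a row and 10 were tested, and none passed in edgeR. The median of the 10 was 1.04 on the log2 scale, and 9 of the 13 with a row had a higher mean in OIO. Their summed level was 9.58, 40.2 and 23.3 CPM in OIO and 8.37, 11.6 and 28.9 CPM in control libraries, and no marker with a row was at 0 in all libraries. Over the same libraries in the same order, the 10 genes summed to 103, 110 and 111 CPM in OIO and to 55.2, 39.7 and 51.2 CPM in control libraries. With the score of these markers as a covariate, 7 of the 10 genes rose, while 3.34% of all genes tested (498 of 14903) were higher in that fit. Cep55 at 0.93 (adjusted p = 0.075), Nusap1 at 1.20 (adjusted p = 0.060) and Cit at 0.58 (adjusted p = 0.15) did not pass in that fit. Without the covariate these genes were at 0.997, 1.26 and 0.45. The covariate fit has 3 residual degrees of freedom, and the main fit has 4. With the covariate, 8 of the 15 central spindle partners and 7 of the 29 spindle assembly factors rose. Which cells carried the transcripts of the 10 genes was not tested.

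Other cell types were compared in the same way. The 10 macrophage markers summed to between 268 and 341 CPM in OIO and between 249 and 329 in control libraries, with no calls. Endothelial markers summed to between 864 and 988 CPM against 874 to 882, with Tek (0.29, adjusted p = 0.0496) and Eng (0.32, adjusted p = 0.047) higher. Stromal markers ranged from 263 to 441 CPM in OIO and from 305 to 733 in control libraries. Acinar markers ranged from 3486 to 8215 against 2986 to 9655 CPM, and 1 of 11, Amy2a5, was at 0 in all libraries. The 7 ductal markers summed to between 366 and 489 CPM in OIO and between 312 and 322 in control libraries, so these groups did not overlap. That sum was mostly Krt7, which rose by 0.30 (adjusted p = 0.020), and Spp1, at 167 ± 57.3 against 102 ± 5.68 CPM (adjusted p = 0.19). Cftr, a defining duct gene, was at 0.35 ± 0.10 CPM in OIO and 0.51 ± 0.18 in control islets, and Krt19 was at 2.91 ± 1.42 against 2.65 ± 1.36. The part of the ductal and endothelial markers in the rise of the 10 genes was not tested.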

How the data were processed

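Poly(A) RNA of mouse islets was compared between 3 OIO and 3 control libraries, named in accession order. Per the submitters' processing notes, the authors' tools were bcl2fastq, kallisto and limma, and GRCm38 and mm10 are named as builds, without versions or roles. The authors deposited whole-number counts per gene symbol, unnormalised, and the sources used here do not say how kallisto's estimates became whole. Library codes differ from the labels by an extra 0 and were matched by number. Per the file headers, the authors' deposited comparison holds per gene a log2 fold change, p-values before and after adjustment, and 2 score columns not used here.

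The test on counts was that of edgeR 4.0.16 (R 4.3.3): filterByExpr, TMM scaling and a robust quasi-likelihood fit with group as its term (4 residual degrees of freedom), Benjamini-Hochberg adjusted over 14903 genes, threshold 0.05, after the code was tested on simulated data. SE is the absolute log2 fold change over the root of F. CPM use TMM-scaled sizes, and log2 CPM add a prior count of 2. Alternatives used DESeq2 1.42.0, limma voom 3.58.1, other scalings and filters, a marker covariate and fits without each library.

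Libraries held 20968058 to 48178375 counts. No replicate pair held the same counts within counting noise (chi-square per degree of freedom 13.6 to 54.5). The members, gene lists and named-gene rule (all 10 members, 4 of lowest p per list, 5 most similar profiles) were chosen with earlier results of these data known. Promoters came from RefSeq (GRCm38.p6), and exon lengths from GENCODE M21, which held 93.0% of the table's symbols.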

Additional observations from a re-analysis of the deposited data

How the results depend on the processing

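The 10 genes kept the direction of their difference in each of 15 alternative fits, and 140 of 150 results for single genes stayed on their side of the threshold. The 10 that did not were 6 for Cep55 and 4 for Nusap1. With library size alone as the scaling, 1113 genes were lower, and 252 with the T and B cell score as covariate. That covariate left 8 central spindle partners and 7 spindle assembly factors higher. The ring and septin genes higher were 2 in DESeq2, and the abscission genes higher were 1 with RLE size factors, with no filter, with a stricter filter and in DESeq2.

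When 1 library was left out, between 336 and 560 genes were higher and between 112 and 303 lower. The central spindle partners higher were then 7 to 11, the spindle assembly factors 6 to 11, the abscission genes 0 to 1 and the 10 genes' median 1.01 to 1.41. Members called were 7 to 8. These fits have fewer libraries, and the cause of each shift was not tested. No paired analysis was possible because the labels give no replicate numbers that the groups share. The lowest member counts, for Cep55, limit its precision.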
